A study of Mus musculus with 6 samples.

Results

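The major histocompatibility complex (MHC) of the mouse, called H2, and the genes that load and regulate its molecules were followed in whole kidney. The members were every row of the expression table whose symbol starts with H2-, other than pseudogene symbols with -ps, plus B2m, Cd74, Ciita, Nlrc5, Tap1, Tap2 and Tapbp. They came to 46 of 34714 genes. RNA was sequenced from 3 Hspa8 knockout kidneys and 3 wild-type kidneys of mice 8 weeks old on normal chow. The labels name Hspa8 flox/flox mice on C57BL/6J and Cdh16-Cre mice, in which a promoter of kidney tubule epithelium drives the recombinase, both from one supplier, and C57BL/6J mice from another supplier. They do not tie these alleles to single samples, but the genotype is Hspa8 knockout or WT and the wild-type titles name C57. The labels state neither the background of the Cre line nor whether the wild-type mice carried the floxed allele or Cre, so effects of source or H2 haplotype cannot be told apart from the knockout. Leukocytes and endothelium lie outside the tissue in which this Cre is driven. Levels are given as FPKM, which scales fragments to transcript length and library total, so that genes can be compared per length, but the depth of each library is unknown.

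Class I molecules, made of a heavy chain and beta-2 microglobulin (B2m), sit on nearly all nucleated cells and show peptides from the cytosol to CD8 T cells. The proteasome cuts these peptides, the TAP transporter (Tap1, Tap2) carries them into the endoplasmic reticulum, and tapasin (Tapbp) holds the empty class I molecule at the transporter. Class II molecules show peptides from endosomes to CD4 T cells and are made mainly by dendritic cells, macrophages and B cells. Their alpha and beta chains travel with the invariant chain (Cd74), and the editors H2-DM and H2-O govern the exchange of its remnant for peptide. CIITA is the master coactivator of class II genes and NLRC5 its counterpart for class I, and both act through factors bound at a shared promoter module. HSC70, the protein of Hspa8, is a cytosolic chaperone with a known part in chaperone-mediated autophagy, one route by which cytosolic proteins reach class II compartments.

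The targeted gene checked the labels. Hspa8 stood at 650, 699 and 781 FPKM in knockout kidneys, against 1058, 1092 and 1318 FPKM in wild-type kidneys. The library sums of FPKM ran from 381586 to 416761 in knockout and from 403895 to 417123 in wild-type. Markers of tubule segments, such as Lrp2 and Slc12a3, were present in every library. Their summed level was 3500 to 3748 FPKM in knockout and 3619 to 3639 FPKM in wild-type, but single markers spread more. Knockout replicate 2 and wild-type replicate 3 stood above the other libraries for Umod, Slc12a1 and Aqp2. They stood below the others for Lrp2, Slc34a1 and Slc12a3, and Cdh16 did neither. Aqp2 had 37.2, 114 and 68.8 FPKM in knockout and 51.4, 54.1 and 83.8 FPKM in wild-type kidneys. Lrp2 had 163, 111 and 181 FPKM in knockout and 176, 142 and 102 FPKM in wild-type kidneys. One knockout and one wild-type library stood apart for the H2 genes. Wild-type replicate 3 was the highest of the 6 libraries and knockout replicate 3 the lowest for 15 of the 22 members tested (68.2%), against 17.3% of all 12174 genes tested.

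No member passed the test. The tested members were the 22 with a mean of at least 1 FPKM over the 6 libraries, and the remaining 24 stayed below it. Limma on log2(FPKM + 1) called 0 of the 22 at an adjusted p under 0.05 over 12174 genes, where it called 0 of all genes (0%). The targeted gene Hspa8 was not called either (log2 fold change -0.70 ± 0.122, SE, limma adjusted p = 0.866). The lack of a call therefore does not show that a gene was unchanged. At an unadjusted p under 0.05, 1 member was lower in the knockout, H2-M3, and 0 were higher, against 4.21% of all genes lower and 0.953% higher. Among the 22 tested members, the values of the groups did not overlap for 2, H2-K1 and H2-M3. Both were lower in the knockout, against 8.57% of all tested genes lower and 2.01% higher. The shares of tested members are near the background. Ciita and H2-Ob, which were not tested, were also lower in the knockout without overlap. All 22 tested members had a log2 fold change below 0, as did 64.9% of all tested genes. With library sums equalised, the members below 0 were 20 of 22 and all genes 50.2%. The median log2 fold change of the 22 members was -0.21, beside -0.04 for all tested genes. In whole tissue, fewer cells of a type and less RNA per cell cannot be told apart.

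**Figure D1:**
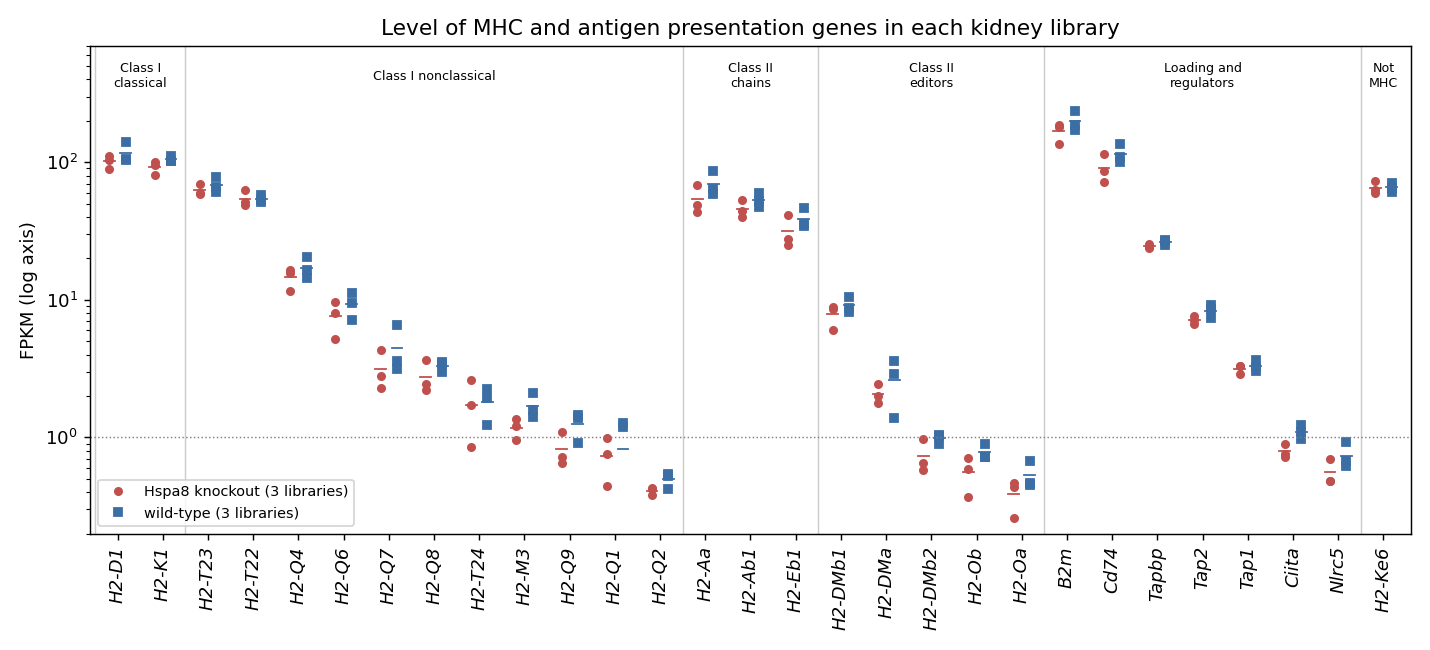
FPKM (log axis) of the members with a mean of at least 0.4 FPKM, by class. Circles are the 3 Hspa8 knockout libraries, squares the 3 wild-type libraries, and short bars the group means, and the dotted line is the 1 FPKM needed for testing. H2-Q1 was listed at 0 in wild-type replicate 3, which a log axis cannot show. The groups overlap for most genes, with B2m, Cd74, H2-D1 and H2-K1 highest.

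The classical class I heavy chains H2-K1 and H2-D1, which present peptide to CD8 T cells, were the most abundant heavy chains. H2-K1 (chromosome 17, 33996012 to 34000619 in GRCm38.p6) stood at 95.6, 100 and 80.1 FPKM in knockout kidneys, against 102, 102 and 111 FPKM in wild-type kidneys. All 3 knockout values lay below all 3 wild-type values, by little in knockout replicate 2 and by most in knockout replicate 3. The means were 92.0 ± 10.6 FPKM in knockout and 105 ± 4.98 FPKM in wild-type (SD, n = 3 each). The log2 fold change was -0.20 ± 0.106 (standard error, limma adjusted p = 0.973), and an exact two-sided permutation test gave p = 0.1, the smallest that 3 against 3 allows. H2-D1 (chromosome 17, 35263094 to 35267497) had 104, 112 and 89.1 FPKM in knockout kidneys, against 104, 105 and 140 FPKM in wild-type kidneys. Here wild-type replicate 3 alone stood high and the groups overlapped, and the log2 fold change was -0.19 ± 0.142 (SE, exact permutation test p = 0.4). It was -0.05 when wild-type replicate 3 was left out and -0.10 when knockout replicate 3 was.

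B2m (chromosome 2, 122147687 to 122153082), the light chain shared by all class I molecules, was the most abundant member of all. It had 187, 180 and 136 FPKM in knockout kidneys, against 185, 173 and 235 FPKM in wild-type kidneys. Knockout replicates 1 and 2 each lay just above wild-type replicates 1 and 2 of the same number, and the extremes were knockout replicate 3 and wild-type replicate 3. The log2 fold change was -0.24 ± 0.158 (SE, limma adjusted p = 0.998), and it was -0.09 when knockout replicate 3 was left out and -0.11 when wild-type replicate 3 was. B2m per unit of H2-K1 plus H2-D1 was 0.938, 0.851 and 0.804 in knockout and 0.896, 0.836 and 0.935 in wild-type libraries, ratios of FPKM that overlapped.

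Of the 27 other class I genes, 9 reached the level for testing. H2-T23, which encodes Qa-1, a ligand of the NKG2A receptor of natural killer cells, had 59.4, 69.5 and 58.7 FPKM in knockout and 60.4, 66.1 and 77.7 FPKM in wild-type kidneys. H2-T22, a ligand of a subset of gamma-delta T cells, had 48.8, 62.3 and 51.2 FPKM in knockout and 53.0, 51.7 and 57.6 FPKM in wild-type kidneys. The highest H2-T22 value was thus a knockout one, and its log2 fold change was -0.01 ± 0.11 (SE). The fold change of H2-T22 turned above 0 under each of 3 other scalings of the libraries. H2-M3, which presents N-formylated peptides of bacteria and mitochondria, had 1.21, 1.35 and 0.959 FPKM in knockout kidneys, against 1.57, 1.39 and 2.11 FPKM in wild-type kidneys. These values did not overlap, though knockout replicate 2 and wild-type replicate 2 nearly met. Its log2 fold change was -0.30 ± 0.13 (SE, limma unadjusted p = 0.0466, adjusted p = 0.961, exact permutation test p = 0.1).

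Several H2-Q genes spread widely between libraries. H2-Q4, which encodes Qb-1, had 16.5, 15.6 and 11.7 FPKM in knockout and 14.3, 16.3 and 20.4 FPKM in wild-type kidneys. H2-Q6 to H2-Q9 encode the near-identical chains of Qa-2, so reads may be split among them and each value is uncertain. Their sum was 18.7, 13.7 and 10.6 FPKM in knockout kidneys, against 14.6, 17.5 and 22.8 FPKM in wild-type kidneys. Knockout replicate 1 stood above a pair of wild-type libraries, so the groups overlapped in the sum as well. Singly, H2-Q7 had a log2 fold change of -0.38 ± 0.251 (SE), which was -0.11 when wild-type replicate 3 was left out, and H2-Q6, H2-Q8 and H2-Q9 had -0.27, -0.21 and -0.30. H2-T24, a nonclassical gene, was at 2.59, 0.845 and 1.72 FPKM in knockout and 1.22, 1.94 and 2.26 FPKM in wild-type, an order with no split by group.

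Summed over H2-Aa, H2-Ab1 and H2-Eb1, the class II chains stood at 121, 163 and 108 FPKM in knockout kidneys, against 150, 141 and 192 FPKM in wild-type kidneys. H2-Aa (chromosome 17, 34282744 to 34287823), the alpha chain of I-A, had 49.1, 68.5 and 43.7 FPKM in knockout kidneys, against 63.5, 58.5 and 85.8 FPKM in wild-type kidneys. Knockout replicate 2 lay above a pair of wild-type libraries, while knockout replicates 1 and 3 lay below all 3. The mean was 53.8 ± 13.1 FPKM in knockout and 69.3 ± 14.5 FPKM in wild-type (SD, n = 3 each), and the log2 fold change was -0.37 ± 0.193 (SE, limma adjusted p = 0.973). H2-Ab1 (chromosome 17, 34263227 to 34269418), its beta chain partner, had 44.1, 53.4 and 39.7 FPKM in knockout and 52.3, 47.0 and 59.8 FPKM in wild-type kidneys. H2-Eb1 (chromosome 17, 34305867 to 34316674), the beta chain of I-E, had 27.9, 41.2 and 25.1 FPKM in knockout and 34.4, 35.3 and 46.2 FPKM in wild-type kidneys. All 3 chains shared one pattern, with wild-type replicate 3 first, knockout replicate 2 second, knockout replicate 1 next to last and knockout replicate 3 last. The log2 fold changes of H2-Ab1 and H2-Eb1 were -0.21 ± 0.133 and -0.31 ± 0.19 (SE). H2-Eb2, a further chain gene, stayed at or below 0.0481 FPKM in every library.

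Cd74 (chromosome 18, 60803849 to 60812652), the invariant chain, kept the same order of libraries as H2-Aa. It had 86.4, 115 and 71.7 FPKM in knockout kidneys, against 110, 100 and 135 FPKM in wild-type kidneys, and its log2 fold change was -0.35 ± 0.181 (SE). With 1 library left out at a time, the fold changes ran from -0.55 (knockout replicate 2 left out) to -0.20 (wild-type replicate 3) for H2-Aa. The range was -0.53 (knockout replicate 2) to -0.19 (knockout replicate 3) for Cd74, and -0.52 to -0.17 for H2-Eb1 with the same libraries left out as for Cd74. Its ratio to the summed class II chains was 0.714, 0.706 and 0.66 in knockout and 0.73, 0.71 and 0.703 in wild-type libraries. The ratio overlapped between the groups, with knockout replicate 3 lowest.

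The editors were much lower. H2-DMb1, the beta chain of H2-DM that exchanges the invariant chain remnant for peptide, had 8.53, 8.87 and 6.07 FPKM in knockout and 8.77, 8.09 and 10.5 FPKM in wild-type kidneys. H2-DMa, its alpha chain, had 2.45, 1.98 and 1.78 FPKM in knockout and 2.88, 1.38 and 3.59 FPKM in wild-type kidneys, and its lowest value was a wild-type one. H2-DMb2, H2-Oa and H2-Ob lay below 1 FPKM on average and were not tested. H2-Ob, the beta chain of the H2-DM inhibitor H2-O, which is known mainly from B cells, had 0.588, 0.712 and 0.369 FPKM in knockout kidneys, against 0.719, 0.716 and 0.898 FPKM in wild-type kidneys. Those values did not overlap, but knockout replicate 2 nearly met wild-type replicate 2, and the depth behind such low values is unknown.

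The coactivators were near the limit of testing. Ciita (chromosome 16, 10480014 to 10531064) had 0.9, 0.76 and 0.714 FPKM in knockout kidneys, against 0.973, 1.09 and 1.22 FPKM in wild-type kidneys. All knockout values lay below all wild-type values, with a difference in mean log2(FPKM + 1) of -0.23 (exact two-sided permutation test p = 0.1). Ciita did not keep the order of its class II targets. Knockout replicate 2, second highest for H2-Aa, was next to last for Ciita. Nlrc5 (chromosome 8, 94434335 to 94527272), the class I coactivator, had 0.701, 0.482 and 0.483 FPKM in knockout and 0.677, 0.619 and 0.919 FPKM in wild-type kidneys, and these overlapped.

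The peptide loading genes had the smallest standard errors of the 22. Tap1 and Tap2, the subunits of the transporter, had log2 fold changes of -0.05 ± 0.0956 and -0.20 ± 0.101 (SE). Tap1 stood at 3.32, 3.29 and 2.88 FPKM in knockout and 3.24, 3.03 and 3.63 FPKM in wild-type kidneys. Tap2 stood at 7.16, 7.56 and 6.62 FPKM in knockout and 7.31, 8.58 and 9.17 FPKM in wild-type kidneys. Tapbp, tapasin, stood at 23.7, 25.3 and 24.2 FPKM in knockout and 27.2, 25.02 and 26.9 FPKM in wild-type kidneys. None of the 3 separated the groups. H2-Ke6 carries an H2 symbol and lies between H2-K1 and the class II genes on chromosome 17, but it encodes a hydroxysteroid dehydrogenase. It had 62.7, 73.5 and 60.0 FPKM in knockout and 61.2, 65.3 and 70.9 FPKM in wild-type kidneys, and its log2 fold change, -0.01 ± 0.106 (SE), turned above 0 under each of 3 other scalings.

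**Figure D2:**
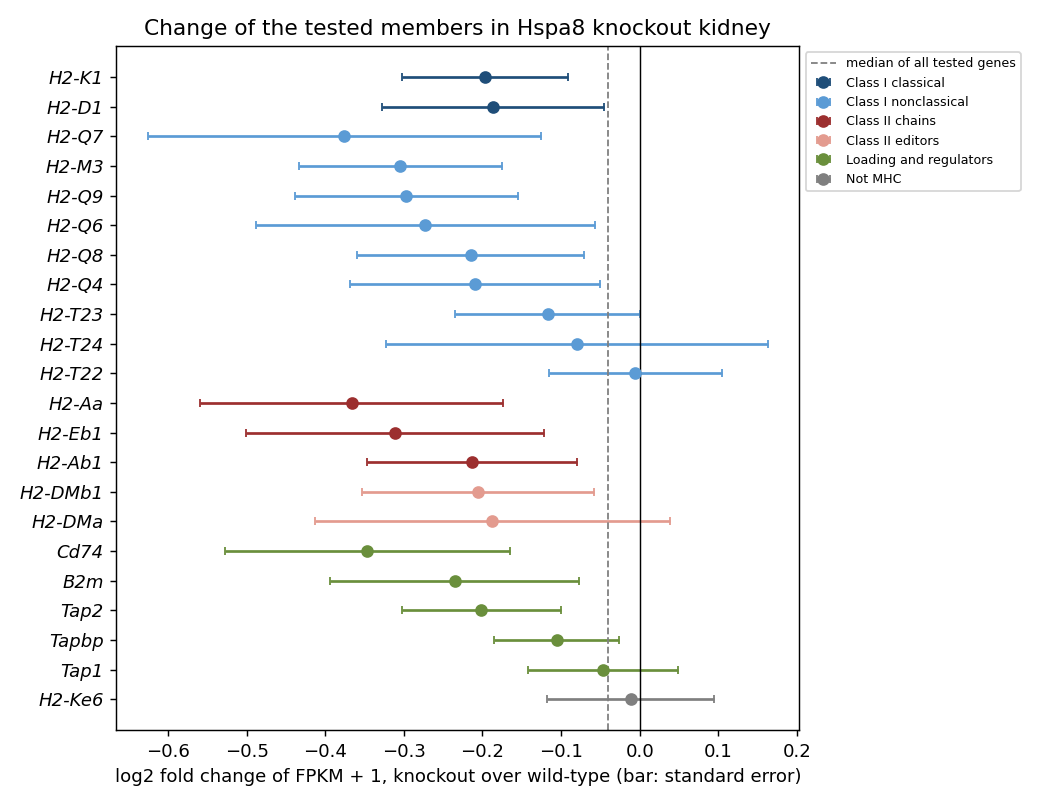
Log2 fold change of FPKM + 1 (knockout over wild-type, horizontal axis) for the 22 tested members, grouped by class from top to bottom, with bars of 1 standard error. The solid line marks 0 and the dashed line the median of all tested genes, -0.04. All points lie below 0, between -0.38 for H2-Q7 and -0.01 for H2-T22 at a pseudocount of 1 with all libraries.

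The 11 tested class I heavy chains had a median log2 fold change of -0.21 and the 5 tested class II genes (3 chains and 2 editors) also -0.21, and the difference between classes was not tested. Among them, the 3 chains had -0.31 and the 2 classical class I genes -0.19. Class II chains per unit of classical class I were 0.607, 0.769 and 0.641 in knockout and 0.727, 0.681 and 0.763 in wild-type libraries. Knockout replicates 1 and 3 had the lowest ratios and knockout replicate 2 the highest of all 6, so the ratio did not separate the groups. Leaving out wild-type replicate 3 brought 17 of the 22 members nearer to 0 by over 1.5 times or above 0, and leaving out knockout replicate 3 did so for 16. Both medians moved by over 1.5 times with single libraries. Leaving out knockout replicate 3, they were -0.10 for class I and -0.12 for class II, and leaving out wild-type replicate 3, -0.11 and -0.12. The class II median was -0.33 when knockout replicate 2 was left out and -0.37 when wild-type replicate 2 was. The class I median was -0.12 when wild-type replicate 3 and knockout replicate 2 were both left out, and -0.08 over the 20 genes fitted with no filter on low values.

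**Figure D3:**
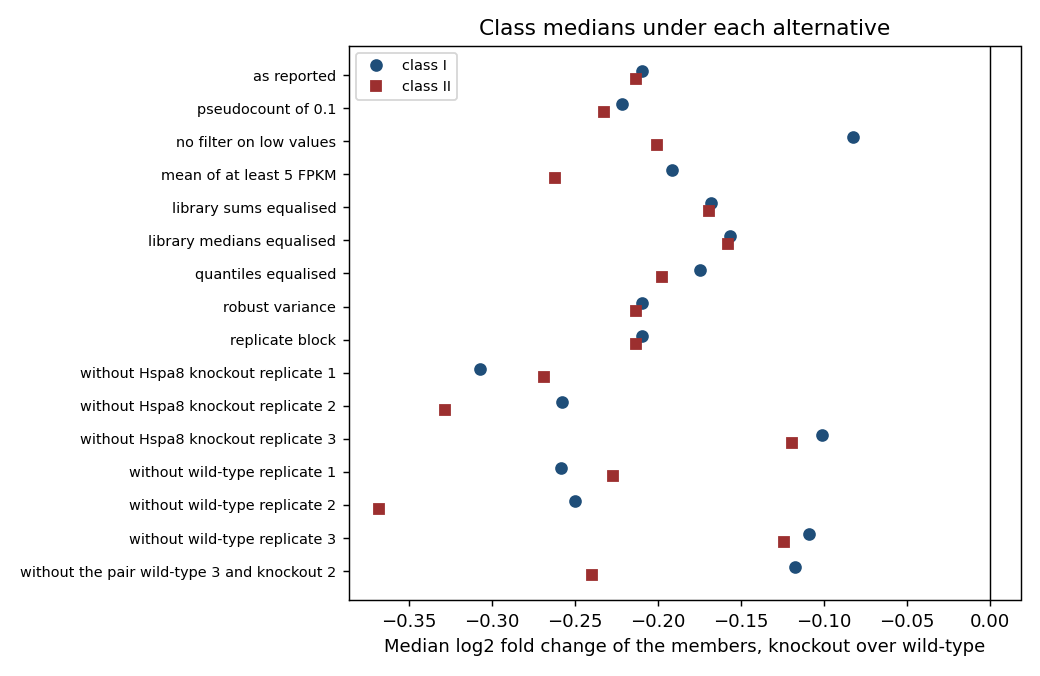
Median log2 fold change (knockout over wild-type, horizontal axis) of the class I heavy chains (circles) and the class II genes (squares) as reported and under each alternative. All medians lie below 0, and those nearest to it among the fits on 22 members leave out knockout replicate 3 (-0.10 and -0.12) or wild-type replicate 3 (-0.11 and -0.12).

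The other members were scarcely detected. Of the 24 untested genes, 11 exceeded 0.1 FPKM in at least 1 library, 4 had values of at most 0.1 FPKM, and 9 were listed at 0 in every library. The last included H2-M9, H2-M11, H2-Bl, H2-T18 and 5 genes of the H2-M10 group, which is known from sensory neurons of the vomeronasal organ. Besides Ciita, Nlrc5, H2-DMb2, H2-Oa and H2-Ob, the 11 were H2-Q1, H2-Q2, H2-Q10, H2-T10, H2-M2 and H2-M5. H2-Q10, known as a class I molecule secreted by the liver, had 0.354, 0.569 and 0.245 FPKM in knockout and 0.215, 0.371 and 0.457 FPKM in wild-type kidneys. H2-Q1 had 0.761, 0.44 and 0.981 FPKM in knockout and 1.20, 1.28 and 0 FPKM in wild-type kidneys, where the 0 is as listed and its cause was not tested.

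Haplotype and near-identical copies bear on how H2 reads are assigned. In the longest GENCODE M21 transcript of each of the 20 tested members that had one, the share of 50-base stretches that also occurred in a transcript of another gene was counted. It was 0% for B2m, Cd74, H2-Ab1, H2-DMa and H2-Eb1 and under 5% for 11 members in all. H2-K1 shared 8.11% and H2-D1 14.3%, while H2-Q6 shared 32.0%, H2-T22 35.8%, mostly with H2-T10, and H2-DMb1 27.2%, all of it with H2-DMb2, so that these values are uncertain. H2-Ke6 shared 96.3% with Gm20427, an overlapping gene model, so its value is uncertain. H2-Q8, H2-Q9 and H2-T18 have no gene on the GRCm38 chromosomes of GENCODE M21, so the shares of H2-Q6 and H2-Q7 are lower limits and no position is given for these 3. The level of 1 gene relative to its neighbour of the same class gave no split by group. H2-D1 over H2-K1 was 1.09, 1.11 and 1.11 in knockout and 1.02, 1.02 and 1.26 in wild-type, and H2-Eb1 over H2-Ab1 was 0.632, 0.771 and 0.633 in knockout and 0.659, 0.752 and 0.772 in wild-type. H2-Ea-ps, which differs between H2 haplotypes, was not analysed here. The part of haplotype in any of these values was not tested.

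Promoters are shown for genes of both classes, because the 2 classes are known to share a promoter module (S, X and Y boxes) through which CIITA and NLRC5 act. RefSeq promoters of GRCm38.p6, from 250 bases before to 50 after the start, were used for 16 of the 22 tested members, at the first start listed where a gene has more. The letters were searched on both strands. CCAAT is the Y box core, read by NF-Y, and TGACG the core of the X2 box, read by CREB. GAANNGAAA is a form of interferon-stimulated elements, read by IRF factors, and GGGATTCCC a kappa B site, read by NF-kB. Capitals mark these matches, which can overlap, as where TGACG meets its own complement in H2-Aa. Only the exact letters were marked. Near spellings, such as gaaactgaaa in B2m or gggagttccc in H2-Aa, were left unmarked.
H2-K1 (chr17:34000298-34000597, minus strand): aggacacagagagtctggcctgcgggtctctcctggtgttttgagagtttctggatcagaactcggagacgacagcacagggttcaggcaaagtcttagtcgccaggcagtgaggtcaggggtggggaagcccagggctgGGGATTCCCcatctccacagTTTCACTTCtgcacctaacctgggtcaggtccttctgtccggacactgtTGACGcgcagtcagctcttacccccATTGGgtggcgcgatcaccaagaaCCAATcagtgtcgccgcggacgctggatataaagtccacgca
H2-D1 (chr17:35262844-35263143, plus strand): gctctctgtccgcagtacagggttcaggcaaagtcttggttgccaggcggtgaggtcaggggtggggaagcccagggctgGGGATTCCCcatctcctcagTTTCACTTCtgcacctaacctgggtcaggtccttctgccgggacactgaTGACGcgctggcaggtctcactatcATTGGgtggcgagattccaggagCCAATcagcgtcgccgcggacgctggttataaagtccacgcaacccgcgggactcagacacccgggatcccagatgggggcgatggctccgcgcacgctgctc
B2m (chr2:122147437-122147736, plus strand): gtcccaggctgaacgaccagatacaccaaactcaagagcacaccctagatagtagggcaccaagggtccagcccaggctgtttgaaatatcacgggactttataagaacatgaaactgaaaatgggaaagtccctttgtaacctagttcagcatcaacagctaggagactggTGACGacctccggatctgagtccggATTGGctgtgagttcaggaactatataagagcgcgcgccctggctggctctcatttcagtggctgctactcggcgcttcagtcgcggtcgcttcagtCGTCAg
H2-Aa (chr17:34287774-34288073, minus strand): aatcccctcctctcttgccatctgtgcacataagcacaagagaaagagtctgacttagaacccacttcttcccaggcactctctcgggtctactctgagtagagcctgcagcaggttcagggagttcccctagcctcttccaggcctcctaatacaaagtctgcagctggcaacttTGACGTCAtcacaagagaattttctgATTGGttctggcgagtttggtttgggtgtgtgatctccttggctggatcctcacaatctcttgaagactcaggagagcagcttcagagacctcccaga
H2-Eb1 (chr17:34305617-34305916, plus strand): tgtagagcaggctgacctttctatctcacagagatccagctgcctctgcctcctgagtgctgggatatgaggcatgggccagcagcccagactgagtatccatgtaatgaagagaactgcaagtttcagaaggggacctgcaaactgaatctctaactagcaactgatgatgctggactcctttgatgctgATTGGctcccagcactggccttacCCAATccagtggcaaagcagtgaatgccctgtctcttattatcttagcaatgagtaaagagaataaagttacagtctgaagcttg

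CCAAT was found in 8 of 8 class I heavy chain promoters and 3 of 4 class II promoters, against 37.4% of all 32851 promoters in the table. The class II promoter without it was that of H2-DMa, whose other listed start, not used here, has a match at -198. TGACG was found in 6 of 8 class I and 1 of 4 class II promoters (20.8% of all). Matches were counted at any position in the window, so the counts of TGACG are not counts of X2 boxes. In H2-T22 the only TGACG match, at -22, lay after all its CCAAT boxes. In H2-Q4 the TGACG matches lay after its first CCAAT box. GAANNGAAA was found in 6 of 8 class I and 0 of 4 class II promoters (7.52% of all). GGGATTCCC was in 4 of 8 class I promoters, those of H2-K1, H2-D1, H2-Q6 and H2-Q7, and in 0 of 4 class II promoters (0.353% of all). A pair of CCAAT boxes 23 to 25 bases apart, seen in the H2-K1, H2-D1 and H2-Eb1 sequences above, stood in 6 of 8 class I promoters and in 1 of 8 other members, against 0.517% of all promoters. The letters and the spacing were chosen with these promoters in view. Because only exact letters were counted, the counts do not show that a promoter or a class lacks such an element in another spelling. A match is a description of the sequence and not a bound site, and those of Cd74, H2-Ab1, H2-Q8, H2-Q9, H2-T24 and Tap2 were not searched.

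Other genes of the pathway, outside the rule for members, also gave no call. The list held 38 symbols, among them both symbols of 1 gene (March1 and Marchf1), and 37 were found. Limma called 0 of the 33 tested, with 2 lower (4.21% of all genes) and 0 higher at an unadjusted p under 0.05. The groups did not overlap for 6, all lower in the knockout, against 8.57% of all genes. Their log2 fold changes were below 0 for 28 of 33 (64.9% of all genes) and above 0 for 5, with a median of -0.10. Creb1, whose protein binds the X2 box, had 3.88, 3.73 and 4.30 FPKM in knockout kidneys, against 5.44, 5.02 and 5.34 FPKM in wild-type kidneys. The groups lay well apart, and the log2 fold change was -0.34 ± 0.0859 (SE), but Creb1 ranked 54 of all tested genes by p and its limma adjusted p was 0.866. Psmb10, a catalytic subunit of the immunoproteasome, had 6.23, 6.16 and 4.80 FPKM in knockout and 7.47, 6.56 and 7.70 FPKM in wild-type kidneys, also without overlap (log2 fold change -0.30 ± 0.113, SE). The other immunoproteasome subunits, Psmb8 and Psmb9, had log2 fold changes of -0.25 and -0.26, and their groups overlapped. On the other side, Azgp1, a soluble class I-like protein, had a log2 fold change of 0.21 ± 0.105 and Fcgrt, the neonatal Fc receptor that pairs with beta-2 microglobulin, 0.03 ± 0.0872 (SE).

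Markers of other cell types are given beside these values. The 15 macrophage and dendritic cell markers summed to 43.3, 68.0 and 40.1 FPKM in knockout kidneys, against 51.9, 47.6 and 66.2 FPKM in wild-type kidneys. Knockout replicate 2 and wild-type replicate 3 had the highest sums, but the list split. Knockout replicate 2 was among the 2 highest libraries for 9 of the 15, including Csf1r and the C1q genes, which make up most of the sum. It was among the 2 lowest for 5, the dendritic cell genes Flt3, Xcr1, Clec9a and Cd209a and the macrophage receptor gene Mrc1. C1qa, a complement gene of tissue macrophages, had 7.60, 13.0 and 7.00 FPKM in knockout and 9.53, 8.06 and 12.5 FPKM in wild-type kidneys. The 5 B cell markers summed to 1.85, 1.01 and 0.763 FPKM in knockout kidneys, against 1.86, 2.04 and 2.10 FPKM in wild-type kidneys. Knockout replicate 2 was thus low for B cell markers, as it was for Ciita, H2-DMb2 and H2-Oa. For H2-Ob, in contrast, it was the highest knockout library, at 0.712 FPKM. Cd209a, a dendritic cell receptor, had 1.12, 1.09 and 0.856 FPKM in knockout and 1.44, 1.68 and 2.14 FPKM in wild-type kidneys, without overlap (limma adjusted p = 0.866). The 7 pan-leukocyte markers summed to 27.0, 35.3 and 23.1 FPKM in knockout and 30.5, 31.9 and 39.2 FPKM in wild-type, the 6 T and NK cell markers to 1.18 to 1.75 FPKM in knockout and 1.40 to 2.39 FPKM in wild-type, and the 3 neutrophil markers to 0.716 to 1.75 FPKM in knockout and 1.01 to 1.72 FPKM in wild-type. Ly6g, which defines neutrophils, was listed at 0 in all libraries.

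**Figure D4:**
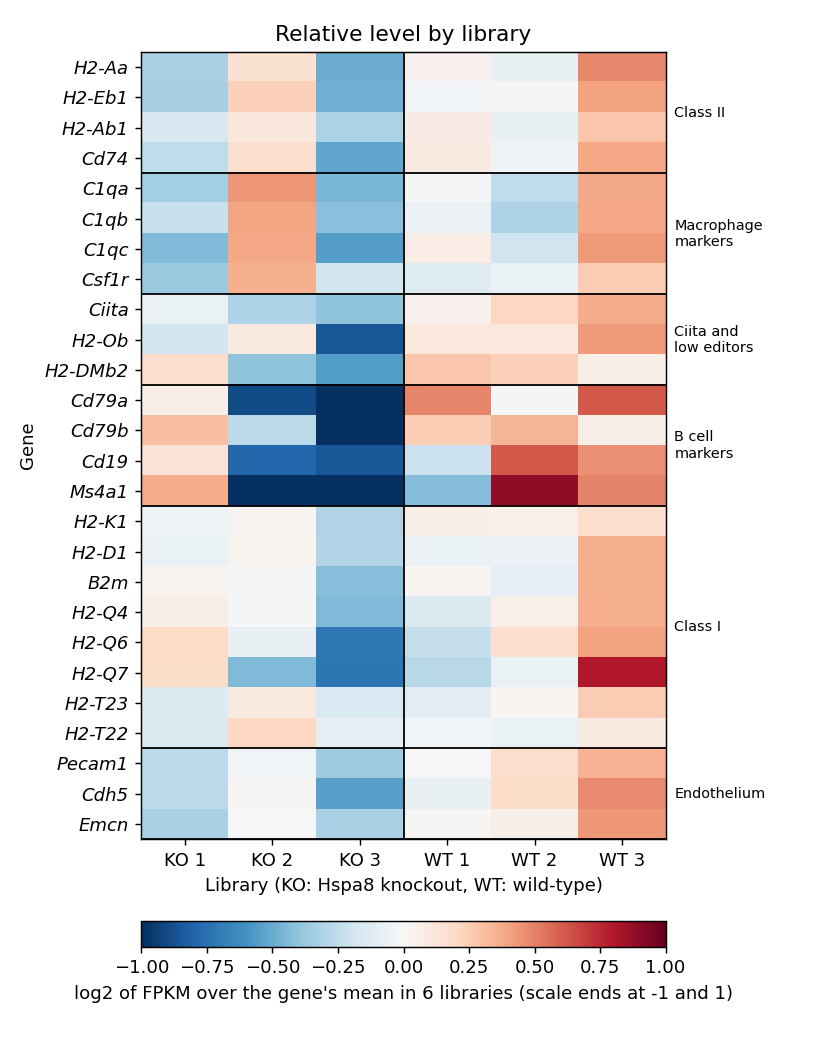
Log2 of FPKM over each gene's mean in the 6 libraries (colour, red above and blue below the mean), with the 3 knockout libraries left of the 3 wild-type libraries. Class II chains, Cd74 and the 4 macrophage markers drawn (C1qa, C1qb, C1qc and Csf1r) are high in knockout 2 and wild-type 3, while B cell markers and Ciita are low in knockout 2. H2-Ob, drawn beside Ciita, is slightly above its mean in knockout 2. For class I, knockout 3 is the lowest library for most rows and wild-type 3 the highest.

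The same 2 libraries were at the ends for endothelial and interferon-response markers. The 9 endothelial markers summed to 98.5, 117 and 89.9 FPKM in knockout kidneys, against 122, 126 and 163 FPKM in wild-type kidneys, and 9 of 9 had a log2 fold change below 0 (64.9% of all genes), 6 of them without overlap (8.57% of all genes). Limma called 0 of the 9, and all 9 were lower at an unadjusted p under 0.05, against 4.21% of all genes. The 17 interferon-response genes found of 18 listed summed to 71.0, 71.6 and 60.4 FPKM in knockout kidneys, against 88.9, 73.3 and 92.3 FPKM in wild-type kidneys, and 16 of 16 tested were below 0 (64.9% of all genes). Limma called 0 of the 16, with 6 lower at an unadjusted p under 0.05 (4.21% of all genes) and 6 lower without overlap (8.57% of all genes). Knockout replicate 3 was lowest and wild-type replicate 3 highest for both sums, as for H2-D1 and B2m. The part of these cell types, of the interferon response or of these libraries in the H2 values was not tested. Of 11 ratios between members or between a member and a marker, 2 left the groups apart, and they were singled out after their values were seen. The share among ratios of other genes was not counted. Class II chains over Ptprc overlapped, at 64.4, 89.05 and 65.91 in knockout and 59.2, 64.42 and 78.92 in wild-type. H2-Aa over C1qa was 6.45, 5.26 and 6.24 in knockout and 6.66, 7.27 and 6.87 in wild-type. H2-K1 over Pecam1, an endothelial adhesion molecule, was 9.79, 8.72 and 8.75 in knockout and 8.70, 7.69 and 7.44 in wild-type.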

How the data were processed

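FPKM values in a single table are what the authors deposited, so they come already divided by transcript length and library total. Per the labels' protocols, RNA came off an RNeasy column and libraries from a SMARTER mRNA-seq kit. The builds are GRCm38 and mm10, per the submitters' processing notes. Aligner, quantifier and annotation: not given in the sources used here. Columns were matched to samples by their names. The knockout columns carry A8, the end of HSPA8, and the number of the title. Whether the 3 samples of a group are separate animals is not stated, so p-values cover only sample-to-sample spread, possibly technical. Genes with a mean of at least 1 FPKM entered limma 3.58.1 (R 4.3.3) on the log2(FPKM + 1) scale (group as the only term, empirical Bayes with a trend, two-sided, Benjamini-Hochberg adjustment over 12174 genes). Fold changes on this scale understate those of low genes. Single members also had an exact permutation test over the 6 libraries. Limma was also run on simulated data with noise independent between genes, which leaves out shifts that the genes of a library share. All members with a mean of at least 1 FPKM are named, as are lower ones above 0.1 FPKM in any library, and of the pathway genes outside the rule the 2 of lowest p on either side. The motif letters, Psmb8, Psmb9 and the markers named singly were chosen after their values were seen. Members and lists were chosen with earlier results of these data known. All 46 symbols matched RefSeq's GRCm38.p6 annotation. Alternatives changed the pseudocount, filter, scaling, variance model, block and libraries used. Figures were drawn with matplotlib 3.10.9.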

Additional observations from a re-analysis of the deposited data

How the results depend on the processing

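No member was called under any of the 15 alternatives, and neither were the pathway genes outside the rule (0 in each). No pairing by the numbers of the labels was evident, as deviations of same-numbered samples correlated at 0.307, -0.215 and -0.321. With 3 samples in each group, these values cannot show whether same-numbered samples were handled together. Over all genes tested, the highest correlation was 0.55, between knockout replicate 2 and wild-type replicate 3, which were left out together in 1 alternative. The cause of this shared shift was not tested. With a replicate block, the members called were 0 and both class medians were as reported. 20 of 22 members stayed below 0 with library sums or medians equalised and 19 of 22 with quantiles equalised, where 50.2%, 46.5% and 49.2% of all genes were below 0. The class I median ran from -0.31 to -0.10 and the class II median from -0.37 to -0.12 when 1 replicate was left out. Without a filter the class I median was -0.08, over 20 genes. Some fold changes turned positive, most of them near 0 as reported but that of H2-DMa from -0.19, and the cause was not tested. H2-Ke6 had 0.0326, 0.0444 and 0.00381 and H2-T22 had 0.0386, 0.0503 and 0.0187 with sums, medians and quantiles equalised. Tap1 had 0.0151 with quantiles equalised. H2-DMa had 0.0297 and H2-T24 0.29 when wild-type replicate 3 and knockout replicate 2 were both left out. With 1 replicate left out, the range was -0.463 to 0.0108 for H2-DMa, -0.0975 to 0.0474 for H2-Ke6, -0.11 to 0.0632 for H2-T22, -0.307 to 0.174 for H2-T24 and -0.0925 to 0.00803 for Tap1. Without knockout replicate 2, and without that pair, limma called 5 genes of the whole table, none of them a member. Depth is unknown, so the precision of genes under 1 FPKM, such as Ciita and H2-Ob, cannot be given.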
